A study of Mus musculus with 72 samples.

Results

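Loss of the hepatocyte clock was measured here in germ-free (GF) mice early in the dark phase, by comparing livers of GF LKO and GF WT mice at ZT14. The members are the 6 libraries whose labels give GF status and ZT14, 3 of each genotype, out of 72 libraries in the series. LKO mice carried Bmal1 fl/fl together with Albumin-Cre, and WT mice carried Bmal1 fl/fl alone, so the floxed allele was present in all 6. All were male C57BL/6 mice (C57BL/6J by the study's methods) that had lived without microbes in isolators, with free access to autoclaved chow, under a cycle of 12 hours of light and 12 hours of dark in which ZT0 is lights on and ZT14 falls early in the dark. The other GF libraries were taken at ZT2, ZT6, ZT10, ZT18 and ZT22, and the specific pathogen-free (SPF) libraries carry the same genotypes and times with a resident microbiota. Cre was driven by the albumin promoter, which is active in hepatocytes, so the deletion is aimed at those cells and not at the other cells of the tissue. Cre without the floxed allele was not part of the design, so an effect of Cre itself and an effect of losing Bmal1 cannot be told apart. The tissue was whole liver, in which fewer cells of a type and less RNA per cell cannot be told apart.

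BMAL1, encoded by Arntl, pairs with CLOCK or NPAS2 and activates genes through E-box sequences, among them the period, cryptochrome and REV-ERB genes, whose products then repress the same activators. REV-ERB and ROR receptors compete at a further element that times Arntl and Npas2 themselves, and the PAR bZIP factors DBP, TEF and HLF, which NFIL3 opposes, carry the rhythm onward through D-box elements. In liver these loops are known to time lipid synthesis and oxidation, drug metabolism and glycogen handling around feeding, which in mice takes place mostly in the dark.

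Promoter stretches of a few clock genes, and of other genes named further on, are shown because they hold the elements through which this pathway works. The sequences are from RefSeq (GRCm38.p6), are written 5′ to 3′ on the gene's strand, and lie within 250 bases upstream of a transcription start. Capitals mark the E-box CACGTG in Ciart and Tef, and the D-box TTATGTAA or TTACGTAA, on either strand, in Per3, Ak4, Ces1e and Alb.
Ciart: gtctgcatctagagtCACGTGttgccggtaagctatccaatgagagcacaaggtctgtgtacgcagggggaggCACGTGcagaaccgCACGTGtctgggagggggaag
Tef: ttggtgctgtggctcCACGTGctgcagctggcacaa
Tef, other start: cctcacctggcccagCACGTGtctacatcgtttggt
Per3: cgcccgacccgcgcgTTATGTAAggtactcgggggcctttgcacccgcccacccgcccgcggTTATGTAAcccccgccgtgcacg
Ak4: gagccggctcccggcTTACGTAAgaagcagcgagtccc
Ces1e: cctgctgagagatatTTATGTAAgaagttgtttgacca
Alb: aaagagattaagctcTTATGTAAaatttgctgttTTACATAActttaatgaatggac
They lie at chr3:95882252-95882359 (minus strand) for Ciart, at chr15:81802531-81802566 and chr15:81811261-81811296 (plus strand) for Tef, and at chr4:151044801-151044885 (minus strand) for Per3. The Ak4 stretch lies at chr4:101419258-101419295 (plus strand), the Ces1e stretch at chr8:93229678-93229715 (minus strand) and the Alb stretch at chr5:90460632-90460688 (plus strand). Among the 250 bases upstream of each start in the table, an E-box was present in 6.02% of 32851 promoters and a D-box in 0.931%. Of the 25 clock and clock-linked genes with a promoter in the table, 5 held an E-box there (Per1, Cry1, Bhlhe41, Ciart and Tef), and only Ciart and Tef among them passed the test below. These are matches of letters, and no binding was measured.

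Of 13806 genes tested, 1907 differed between GF LKO and GF WT mice at ZT14, which is 13.8% (edgeR quasi-likelihood test, adjusted p under 0.05, here termed called). The numbers higher and lower in LKO mice were nearly equal, 942 (6.82%) and 965 (6.99%), and the median log2 fold change of all genes was 0.0088. A change of at least 1 on the log2 scale was reached by 361 higher (2.61%) and 371 lower (2.69%) genes, together 5.3% of those tested. In 32.6% of all genes the 3 libraries of each genotype did not overlap. The same fit called 710 genes at ZT2 (5.14%), 2097 at ZT6 (15.2%), 1908 at ZT10 (13.8%), 1719 at ZT18 (12.5%) and 839 at ZT22 (6.08%), and 304 genes were called in the same direction at all 6 times.

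The 6 libraries held 18380656 to 19923220 counts each, and levels are given as CPM, counts relative to library size, scaled by TMM factors over all 72 libraries. Alb, which encodes the carrier protein of plasma, took 9.10% to 10.9% of the counts in WT libraries and 3.20% to 4.22% in LKO libraries. Summed levels of the other 9 hepatocyte markers were 40190 to 45770 CPM in WT and 44210 to 48060 CPM in LKO libraries. By edgeR none of the 11 Kupffer cell, 9 stellate cell and 5 lymphocyte markers tested was called (4, 3 and 1 at an unadjusted p under 0.05, and 1, 0 and 0 by DESeq2). With a library left out, Kupffer cell markers called lower became 3 without LKO replicate 3 and 1 without WT replicate 3 or LKO replicate 1, and stellate cell markers called higher became 2 without WT replicate 1 and 1 without LKO replicate 3. With no filter on low counts these were 5 and 2. All 11 Kupffer cell markers had a log2 fold change below 0 and their sum was 311 to 455 CPM in WT against 196 to 351 CPM in LKO libraries. Of the hepatocyte markers Ahsg (0.41) and Asgr1 (0.30) were called higher, and the number called higher was 0 or 1 with a library left out. Of the red blood cell markers Alas2 (−0.49) was called lower, but not without WT replicate 1 or LKO replicate 2. Stab2 of the endothelial markers and Spp1 of the cholangiocyte markers were called higher, and the Spp1 call rested on LKO replicate 2, whose level was 147 CPM against 70.1 and 37.4 CPM in the other LKO libraries. The summed cholangiocyte markers were 39.9 to 41.3 CPM in WT and 45.4 to 162 CPM in LKO libraries. WT replicate 3 stood apart in Noct, which encodes nocturnin, at 25.2 CPM against 120 and 140 CPM, and in Alas1, the first enzyme of haem synthesis, at 894 CPM against 361 and 459 CPM. The part of these shifts in the results was not tested, and calls that end without a given library are named where they occur.

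Arntl, the floxed gene, had 9.65, 10.9 and 10.7 CPM in WT libraries and 7.04, 9.96 and 8.996 CPM in LKO libraries. The ranges overlapped, the log2 fold change was −0.26 ± 0.28 (SE) and the adjusted p was 0.615. Counts were summed over all exons of the gene, so a transcript that lacks the deleted exons is still counted, and the level does not check the deletion. Npas2, the paralogue of Clock that also pairs with BMAL1, had 0.307, 0.174 and 0 CPM in WT and 17.9, 26.03 and 26.6 CPM in LKO libraries. Its log2 fold change was 7.12 ± 0.38 (adjusted p = 2.579e-14), at chr1:39193731-39363236 (mm10). Clock itself rose from 74.9, 81.7 and 85.0 CPM to 114, 123 and 150 CPM, a log2 fold change of 0.68 ± 0.13 (adjusted p = 2.865e-04). No WT library reached an LKO library in either gene. The receptor gene Rora, whose product activates Arntl, did not pass, with a log2 fold change of 0.16.

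Of the 10 repressors of the loop, 3 fell, none rose and 7 did not pass, and the median log2 fold change was −0.72. Nr1d2, which encodes REV-ERBβ, fell from 79.4, 74.7 and 60.4 CPM to 11.02, 11.3 and 11.5 CPM (log2 fold change −2.66 ± 0.16, adjusted p = 3.057e-13). Per3, a period gene, fell from 20.2, 16.6 and 18.0 CPM to 3.36, 3.29 and 3.38 CPM (−2.45 ± 0.24, adjusted p = 7.819e-09). Ciart, a repressor of CLOCK and BMAL1 with 3 E-boxes in the stretch printed above, fell from 2.27, 3.48 and 4.32 CPM to 0.414, 0.359 and 0.981 CPM (−2.52 ± 0.50, adjusted p = 5.486e-04). In all 3 the genotypes were fully separated, and the LKO libraries lay close together in Nr1d2 and Per3. Nr1d1, which encodes REV-ERBα, was already low in WT livers at this time, at 6.58, 5.62 and 5.01 CPM, against 3.31, 3.70 and 1.47 CPM in LKO livers (−1.01 ± 0.48, adjusted p = 0.18). Bhlhe41 was likewise low in both genotypes, under 1.4 CPM in every library, and had a log2 fold change of −1.67 (adjusted p = 0.0529). The other period and cryptochrome genes gave log2 fold changes of −0.03 for Per1, −0.42 for Per2, 0.81 for Cry1 and 0.17 for Cry2, and Bhlhe40 gave 0.18. For Cry1 the LKO libraries, at 63.1, 69.9 and 77.04 CPM, all exceeded the WT libraries, at 42.9, 45.1 and 31.9 CPM, yet the adjusted p was 0.0847.

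Among the D-box factors, Dbp, Tef and Hlf fell and Nfil3, their opponent, did not pass (log2 fold change 0.32). Dbp fell from 12.9, 8 and 8.01 CPM to 3.21, 3.65 and 2.34 CPM (−1.65 ± 0.34, adjusted p = 7.66e-04). Tef fell from 167, 177 and 168 CPM to 113, 119 and 117 CPM (−0.55 ± 0.10, adjusted p = 2.363e-04), and Hlf from 72.8, 62.6 and 76.3 CPM to 53.9, 49.2 and 48.9 CPM (−0.48 ± 0.15, adjusted p = 0.0273). No library overlapped in any of the 3, and the log2 fold changes of Tef and Hlf were smaller in size than that of Dbp. The Hlf call ended without WT replicate 1 or 3 or LKO replicate 2 or 3. In a fit of the 12 ZT14 libraries of both GF and SPF mice, Dbp, Tef and Hlf were not called. The calls of Clock and Ciart also ended there, while Npas2, Nr1d2 and Per3 stayed called.

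Of the 10 clock-linked output genes, 1 rose, 4 fell and 5 did not pass. Rgs16, a regulator of G protein signalling, fell from 29.5, 20.99 and 7.32 CPM to 0.103, 0.0513 and 0.218 CPM (log2 fold change −7.22 ± 1.28, adjusted p = 1.419e-04). Por, the electron donor of all microsomal P450 enzymes, fell from 735, 525 and 615 CPM to 110, 101 and 112 CPM (−2.54 ± 0.32, adjusted p = 8.815e-07). Nampt, the rate-limiting enzyme of NAD salvage, fell from 221, 237 and 242 CPM to 66.1, 61.2 and 70.1 CPM (−1.82 ± 0.24, adjusted p = 1.951e-06). Wee1, a kinase that holds back mitosis, fell by 1.56 on the log2 scale, and Cdkn1a, the p21 inhibitor of the cell cycle, rose from 6.02, 8.87 and 8.64 CPM to 123, 95.3 and 125 CPM (3.86 ± 0.69, adjusted p = 1.448e-04). The WT libraries of Rgs16 differed among themselves, but the lowest of them lay well above every LKO library. The deubiquitinase Usp2, Noct, Alas1, Pnpla2, which encodes a triglyceride lipase, and Tsku did not pass, with log2 fold changes between −0.63 and 0.30. Over the 29 genes of the 4 clock lists, 3 rose, 10 fell and 16 did not pass, and the median was −0.42. That is 10.3% higher and 34.5% lower, against 6.82% and 6.99% of all genes. The Rgs16 call ended in the fit of the 12 ZT14 libraries, and the other output calls held there.

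**Figure D1:**
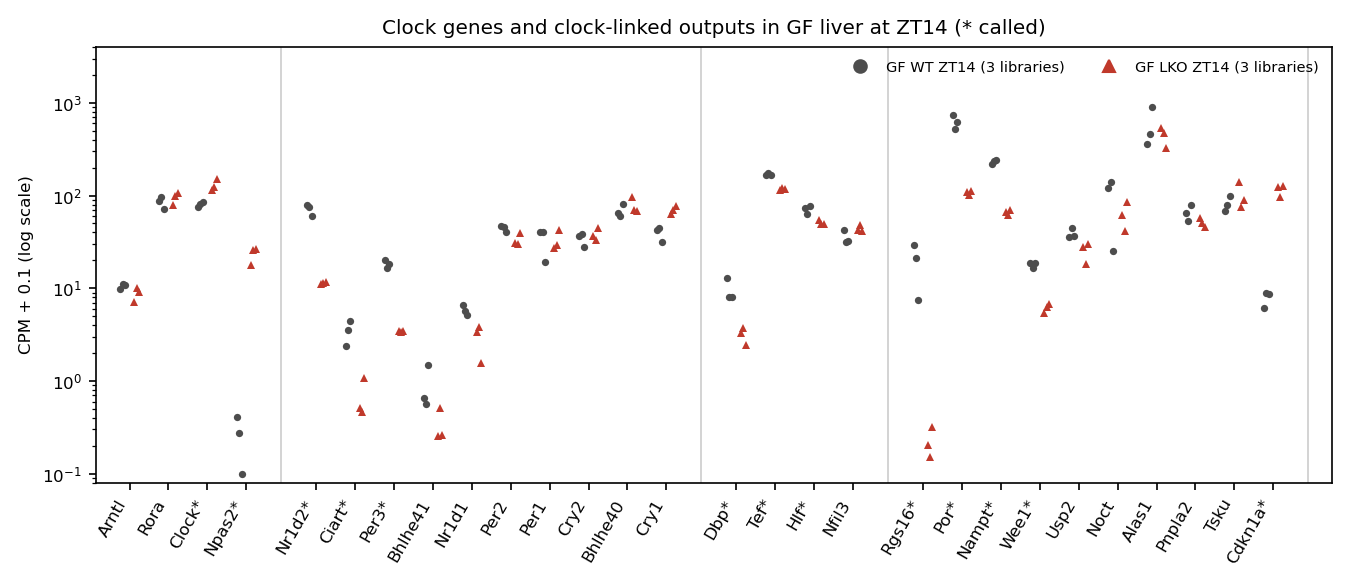
Level (CPM + 0.1, log axis) of genes of the 4 clock lists in the 3 GF WT (grey circles) and 3 GF LKO (red triangles) libraries of ZT14; vertical lines part activators, repressors, PAR bZIP factors and outputs, and an asterisk marks a called gene. Npas2 and Cdkn1a stand well above WT, Nr1d2, Per3, Rgs16 and Por well below it, and Arntl overlaps.

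The 10 largest increases were taken from the 1633 called genes whose groups did not overlap and whose mean level reached 1 on the log2 CPM scale, of which 794 were higher and 839 lower. Npas2 headed them. The next were the long noncoding RNA 4930459C07Rik (log2 fold change 6.87), Slc34a2, a sodium and phosphate cotransporter (6.73), Ntrk2, the receptor of brain-derived neurotrophic factor (6.14), and Loxl4, an enzyme that crosslinks collagen (6.09). They were followed by Sult1e1, the oestrogen sulfotransferase (5.42), Tox2, an HMG-box factor (5.36), Lpl, lipoprotein lipase (4.31), the noncoding 3930402G23Rik (4.07) and Srgap3, a GTPase-activating protein (4.05). Lpl was the most abundant of these, with 28.02, 42.4 and 64.1 CPM in WT and 1086, 950.3 and 628 CPM in LKO libraries (SE 0.39, adjusted p = 1.349e-09). Loxl4 went from 0.615, 0.754 and 0.751 CPM to 49.9, 51.9 and 44.3 CPM. Ntrk2 was uneven within the LKO group, at 2.54, 19.4 and 17.9 CPM. Lipoprotein lipase is the enzyme that frees fatty acids from circulating triglyceride, and adult liver normally holds little of it.

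The 10 largest decreases began with Gm32468, a long noncoding RNA at chr10:93084206-93093727 (mm10). It had 6.45, 10.7 and 9.45 CPM in WT libraries and no counts in any LKO library. With 3 counts in an LKO library as the limit, it was at least 54.1-fold below the WT mean. Against the lowest WT library it was at least 39.45-fold lower. Rgs16 came next, followed by Mme, the neprilysin protease, which fell from 84.7, 113 and 113 CPM to 1.29, 1.85 and 3.33 CPM (log2 fold change −5.59 ± 0.39, adjusted p = 6.685e-12). The acyl-CoA thioesterase Acot3 gave −5.53, the N-acetyltransferase family genes Nat8 and Nat8f5 gave −5.39 and −3.81, and the collagen gene Col27a1 gave −4.57. Cyp2a5, which oxidises coumarin and nicotine, fell from 949.5, 626 and 604 CPM to 61.5, 55.7 and 71.4 CPM (−3.53 ± 0.31, adjusted p = 7.525e-10). Mup17 gave −4.47, but major urinary protein genes are near-identical, and reads that match several of them were not counted. Gm19522 gave −4.40 and is annotated as antisense, and since the counting did not use strand its reads cannot be told from those of the gene opposite.

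Genes of lipid synthesis were lower in LKO livers. Of 20 genes of fatty acid and triglyceride synthesis that were tested, 12 fell, none rose and 8 did not pass, with a median log2 fold change of −0.73 against 0.0088 over all genes and 6.99% of all genes called lower. Acacb, the acetyl-CoA carboxylase of the mitochondrial surface whose product restrains fatty acid entry, fell from 104, 104 and 124 CPM to 13.6, 17.4 and 13.1 CPM (−2.91 ± 0.35, adjusted p = 3.123e-07). Thrsp, the Spot14 factor that goes with lipogenesis, fell from 1980, 1728 and 2220 CPM to 463, 463 and 462 CPM (−2.09 ± 0.32, adjusted p = 2.002e-05). Elovl6, which lengthens palmitate, fell from 249, 206 and 176 CPM to 62.5, 58.6 and 55.8 CPM (−1.84). In each the highest LKO library lay well under the lowest WT library. The desaturases Fads2, Scd1 and Fads1 gave −1.48, −0.997 and −0.99, Lpin2, a phosphatidate phosphatase, gave −1.83, and Me1, malic enzyme, gave −1.32. Fasn, fatty acid synthase, gave −1.22 (adjusted p = 0.0446), and Acaca, the cytosolic carboxylase, was also among those that fell. Mlxipl, which encodes the glucose-sensing factor ChREBP, fell by 0.75, and Srebf1, the insulin-responsive factor, had −0.41 and did not pass (adjusted p = 0.588). The Fasn call ended whichever of the 6 libraries was left out, the Scd1 call with each but LKO replicate 2, the Mlxipl call with the omission of WT replicate 1 or 2 or LKO replicate 1 or 3, and the Acaca call with that of WT replicate 2 or any LKO library. The list held 8 to 10 genes called lower with a library left out and 5 in a fit of the 12 ZT14 libraries of both GF and SPF mice.

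Genes of fatty acid oxidation and PPARA targets were lower as well, which is the opposite arm of fatty acid handling. Of 35 tested, 20 fell, none rose and 15 did not pass, with a median log2 fold change of −0.59. Called lower were thus 57.1%, against 6.99% of all genes. Ppara, the receptor that drives this programme in fasting, fell from 86.3, 104 and 86.4 CPM to 53.5, 57.9 and 53.4 CPM (−0.75 ± 0.18, adjusted p = 4.071e-03). The microsomal omega-hydroxylases Cyp4a14 and Cyp4a10 gave −3.19 and −2.51. Aldh3a2, which oxidises fatty aldehydes, fell from 499, 418 and 423 CPM to 80.5, 80.7 and 93.1 CPM (−2.40 ± 0.21, adjusted p = 7.826e-10). The thioesterases Acot1 and Acot4 gave −2.39 and −2.05, beside Acot3 above. In the peroxisome, Acaa1b gave −1.76 and Ehhadh gave −0.998. Fabp1, the liver fatty acid binding protein, fell from 5520, 6646 and 6902 CPM to 2568, 2351 and 2739 CPM (−1.32). Among mitochondrial members Cpt2 gave −0.30, while Cpt1a, which controls entry into the mitochondrion, had −0.43 (adjusted p = 0.0754). The Cyp4a14 call ended when any single LKO library was left out, and the Cpt2 call without WT replicate 1 or 3 or LKO replicate 2.

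Of 26 genes of cholesterol synthesis and uptake, 1 rose, 2 fell and 23 did not pass, so that 11.5% were called against 13.8% of all genes. The 2 became 1 without WT replicate 1 or 3 or any LKO library, 7 with no filter on low counts and 0 in the fit of the 12 ZT14 libraries. The riser was Insig2, a protein of the endoplasmic reticulum that holds back SREBP, which went from 146, 131 and 180 CPM to 544, 559 and 598 CPM (log2 fold change 1.90 ± 0.16, adjusted p = 2.46e-10). Its relative Insig1 fell by 0.66, from 451, 388 and 446 CPM to 239, 296 and 280 CPM, so these paralogues moved in opposite directions. In bile acid handling 2 of 13 rose and 1 fell, so that 23.1% were called against 13.8% of all genes. Cyp7b1, the oxysterol 7α-hydroxylase, rose by 1.16 and Abcb11, the bile salt export pump, by 0.69, whereas Akr1d1, the 5β-reductase, fell by 1.04, and Cyp7a1, the rate-limiting enzyme of the main route, had 0.34 (adjusted p = 0.74). The Abcb11 call ended without WT replicate 1.

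None of 7 gluconeogenesis genes passed by edgeR, with 2 at an unadjusted p under 0.05 and 1 called by DESeq2, and this does not show that they were equal. Without WT replicate 3, 1 was called lower, and with no filter on low counts 1 was called higher and 2 lower. Pck1 had 4205, 4141 and 1516 CPM in WT and 3316, 2597 and 3445 CPM in LKO libraries, and G6pc, the last step of glucose release, had 1074, 684 and 355 CPM against 1326, 1032 and 702 CPM. WT replicate 3 was the lowest of the 6 libraries in both. In glucose uptake and glycolysis 2 of 14 rose and 4 fell, which is 14.3% higher and 28.6% lower, against 6.82% and 6.99% of all genes. Slc2a2, the GLUT2 transporter, fell from 513, 493 and 535 CPM to 286, 249 and 284 CPM (−0.91 ± 0.13, adjusted p = 5.533e-06), Gckr, a regulatory protein of hepatic glucose use, rose by 0.63, and Ldha, lactate dehydrogenase, rose by 0.64.

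Enzymes of drug metabolism were split. Of 25 xenobiotic receptors and enzymes, 7 rose, 8 fell and 10 did not pass. That is 28% higher and 32% lower, against 6.82% and 6.99% of all genes. The receptors Nr1i2 (PXR) and Nr1i3 (CAR) fell, with log2 fold changes of −0.66 and −0.56, as did Cyp3a11 (−1.87) and the carboxylesterase Ces1d, which went from 1502, 1431 and 1292 CPM to 186, 109 and 131 CPM (−3.31 ± 0.30, adjusted p = 2.194e-09). In the opposite direction Cyp2c55 rose from 5.90, 3.30 and 3.69 CPM to 83.5, 72.6 and 55.6 CPM (4.04 ± 0.29, adjusted p = 1.899e-11). The glutathione transferases Gstm3 and Gstm1 rose by 2.70 and 1.13, and Cyp2c29, among the more abundant P450 transcripts, rose by 1.09. Cyp2b10, a CAR target, was higher in every LKO library but did not pass (1.34, adjusted p = 0.0858). The Cyp2c and Gstm genes are families of close copies, and reads shared among copies were not counted. The same rule of counting held for the Cyp2a, Cyp3a, Cyp4a, Ces1 and Acot genes named in this text. The list held 4 to 6 genes called higher with a library left out, the lowest number being without WT replicate 2, WT replicate 3 or LKO replicate 3. The Nr1i3 call ended whichever library other than WT replicate 3 was left out, and the Cyp3a11 call without WT replicate 1 or LKO replicate 2.

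Sex-biased genes passed in both directions in these males. Of 20 male-biased genes 4 rose and 3 fell, which is 20% higher and 15% lower, against 6.82% and 6.99% of all genes. Of the 9 female-biased genes that could be tested, out of 20 listed, 2 rose and 3 fell, which is 22.2% and 33.3%. In either list the number called lower was as low as 1 with a library left out. Elovl3, a male-biased elongase, rose from 360, 333 and 286 CPM to 2062, 1731 and 2105 CPM (2.59 ± 0.23, adjusted p = 1.354e-09), while Cyp4a12a and Selenbp2, likewise male-biased, gave −1.05 and −1.06. Those calls ended without WT replicate 3 or LKO replicate 2, that of Cyp4a12a also without LKO replicate 3 and that of Selenbp2 without LKO replicate 1. Among female-biased genes Sult1e1 rose by 5.42, Prlr, the prolactin receptor, rose by 1.52 and Cyp17a1, of steroid synthesis, fell by 2.59. Mup17 of the male-biased list gave −4.47, with the limit on its counting given above. None of 14 growth hormone and IGF axis genes passed by edgeR (1 at an unadjusted p under 0.05 and 0 by DESeq2), although with no filter on low counts 2 were called higher and 3 lower, and in a fit of the 6 libraries alone 1 each way. Ghr and Igf1 had log2 fold changes of −0.16 and 0.05.

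Of 27 genes of amino acid breakdown and the urea cycle 4 rose and 1 fell. That is 14.8% higher and 3.70% lower, against 6.82% and 6.99% of all genes, or 18.5% called against 13.8%. Cbs, which commits homocysteine to cysteine, rose from 237, 242 and 219 CPM to 704, 625 and 675 CPM (1.52 ± 0.17, adjusted p = 1.448e-07), Bhmt rose by 1.07, and Asl, of the urea cycle, fell by 1.26. Of 21 heat shock and cold-inducible genes 4 fell, led by Hspb1 (−2.31), which is 19.05% against 6.99% of all genes. The list held 1 such gene without WT replicate 1, LKO replicate 1 or LKO replicate 2 and 2 without WT replicate 2. None of 27 endoplasmic reticulum stress genes passed by edgeR (3 at an unadjusted p under 0.05 and 0 by DESeq2), but 2 were called higher and 5 lower with no filter on low counts. In a fit of the 6 libraries alone 2 were called lower. Without WT replicate 1 or LKO replicate 3, 1 was called lower, and without WT replicate 2, 1 was called each way. For 80 cytosolic ribosomal protein genes the median log2 fold change was 0.26, which was 0.25 over the other 5 ZT. In 36 of them every LKO library exceeded every WT library, against 2268 of 13806 genes. In 1 every LKO library was lower, against 2226 of all genes. By the test 5 rose, by 0.33 to 0.96. That is 6.25% against 6.82% of all genes, and as a count no result about the list. The 5 became 2 without WT replicate 1 or LKO replicate 1 and 3 without WT replicate 2, WT replicate 3 or LKO replicate 3, and 16 in a fit of the 6 libraries alone.

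**Figure D2:**
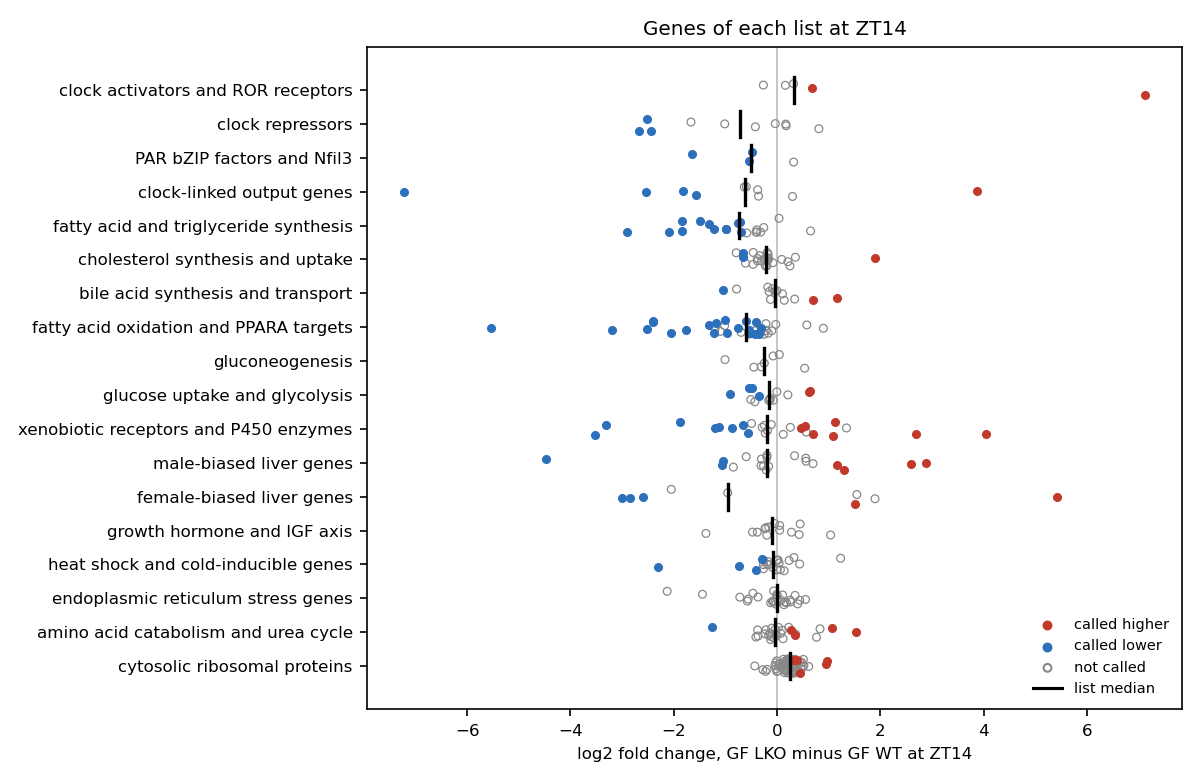
Log2 fold change (GF LKO minus GF WT at ZT14, horizontal axis) of every tested gene in each list, with called genes filled (red higher, blue lower), other genes open and the list median as a black bar. Fatty acid synthesis and fatty acid oxidation hold 12 and 20 called genes, all lower, while drug metabolism and sex-biased genes lie on both sides of 0.

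Several of the genes called lower hold a D-box like those printed above. Of the 17 genes called lower that hold a D-box within 250 bases upstream, 12 fell by at least 1 on the log2 scale. They include Ak4, an adenylate kinase of mitochondria, which fell from 124, 128 and 114 CPM to 23.8, 15.9 and 21.4 CPM (−2.58 ± 0.20, adjusted p = 5.836e-11). The carboxylesterases Ces1b and Ces1e gave log2 fold changes of −2.25 and −1.99, and Slc16a12, a monocarboxylate transporter, gave −1.31. Alb fell from 102800, 123000 and 121400 CPM to 43510, 31330 and 35620 CPM (−1.65 ± 0.16, adjusted p = 1.044e-08). The 3 genes called higher with a D-box were Prlr, Slc17a1 and Cgas. The genes named here, and the stretches printed, were chosen after their values were seen. Of the promoters of all genes tested, 0.69% held a D-box. A comparison of shares between gene sets was void, since a promoter was matched for only 76.2% of all genes tested, 77.4% of those called lower and 75.8% of those called higher, and the albumin promoter also drove Cre in the same mice.

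Whether ZT14 differs from the rest of the day was tested in the same fit. The test took the genotype difference at ZT14 minus the mean of the differences at the other 5 ZT. A gene that passes need not differ from each single ZT. In this test 39 of 13806 genes passed (0.282%), 19 with a more positive (0.138%) and 20 with a more negative difference at ZT14 (0.145%), and 1197 had an unadjusted p under 0.05. The count was unstable: it was 18 without WT replicate 1, 24 without WT replicate 3, and 14, 13 and 18 without LKO replicates 1, 2 and 3. Npas2, Per3, Tef and Acacb of the lists above were among them, as were Loxl4 and Srgap3 of the 10 largest increases. The other 8 named here were chosen after their values were seen.

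For Npas2 the difference between ZT14 and the other times was 2.68 ± 0.54 (adjusted p = 0.0176). The LKO group means stayed between 20.2 and 33.7 CPM over the day. The WT group means were 0.129, 0.16 and 0.22 CPM at ZT10, ZT14 and ZT6 but 9.22 CPM at ZT2 and 11.7 CPM at ZT22. Per3 had LKO means of 3.26 to 5.67 CPM at all 6 times and WT means that reached 31.2 CPM at ZT10, were 18.3 CPM at ZT14 and were 1.25 CPM at ZT2. The difference for Per3 was −1.59 ± 0.26 (adjusted p = 1.928e-03), and at ZT2 the sign of its genotype effect was opposite, with a log2 fold change of 1.36. Tef had LKO means of 94.4 to 118 CPM against WT means of 42.7 CPM at ZT2 and 271 CPM at ZT10, and a difference of −0.53 (adjusted p = 0.0232). For Per3 and Tef the LKO means covered a narrower range over the day than the WT means, whereas for Npas2 every LKO mean exceeded every WT mean. The call for Npas2 ended without WT replicate 2 or 3 or LKO replicate 2, and that for Tef whichever of the 6 libraries was left out.

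For Acacb the LKO level itself was lowest at ZT14. LKO means were 62.5 CPM at ZT2, 22.7 CPM at ZT10, 14.7 CPM at ZT14 and 73.4 CPM at ZT22, whereas WT means at these times were 73.5, 65.2, 111 and 105 CPM. The difference was −1.91 ± 0.36 (adjusted p = 0.0112), and it was no longer called when LKO replicate 1 or 3 was left out. Gys2, the glycogen synthase of liver, fell at ZT14 from 540.2, 530 and 515 CPM to 113, 84.8 and 112 CPM (−2.35 ± 0.12, adjusted p = 5.5e-15), and its difference from the other times was −0.90 ± 0.12 (adjusted p = 2.66e-04). Its LKO means were 83.2 to 111 CPM at every time and its WT means 129 to 621 CPM. Ak4 and Uox, the urate oxidase of peroxisomes, gave differences of −1.11 and −0.67, both lost when LKO replicate 2 was left out.

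Among genes more raised at ZT14 than in the mean of the other 5 times were Atf5 and Clpx. They encode a factor of the mitochondrial stress response and the unfoldase of the mitochondrial ClpXP protease. Atf5 had 136, 140 and 116 CPM in WT and 486, 464 and 485 CPM in LKO libraries of ZT14, and its difference from the other times was 1.25 ± 0.18 (adjusted p = 3.26e-04). The WT mean of Atf5 was lowest at ZT14, 131 CPM against 403 CPM at ZT22, and at ZT2 the genotype effect was −0.03. Clpx gave a log2 fold change of 2.02 at ZT14, 3.21 at ZT10 and 0.13 at ZT22, and its difference of 0.69 was lost without WT replicate 3 or any LKO library. Gpd1, which turns a glycolytic intermediate into glycerol 3-phosphate, rose at ZT14 (0.48) but had negative log2 fold changes at 4 of the other 5 times, and its difference was 0.90 ± 0.15 (adjusted p = 1.844e-03). Its call at ZT14 ended without WT replicate 1 or LKO replicate 1, while that of the difference did not. Dtx4, a Notch-related ubiquitin ligase, and Slc30a10, a manganese exporter, gave differences of 1.21 and 1.11, and Loxl4 and Srgap3 of the 10 largest increases gave 1.90 and 1.72. The call for Loxl4 ended whichever of the 6 libraries was left out.

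**Figure D3:**
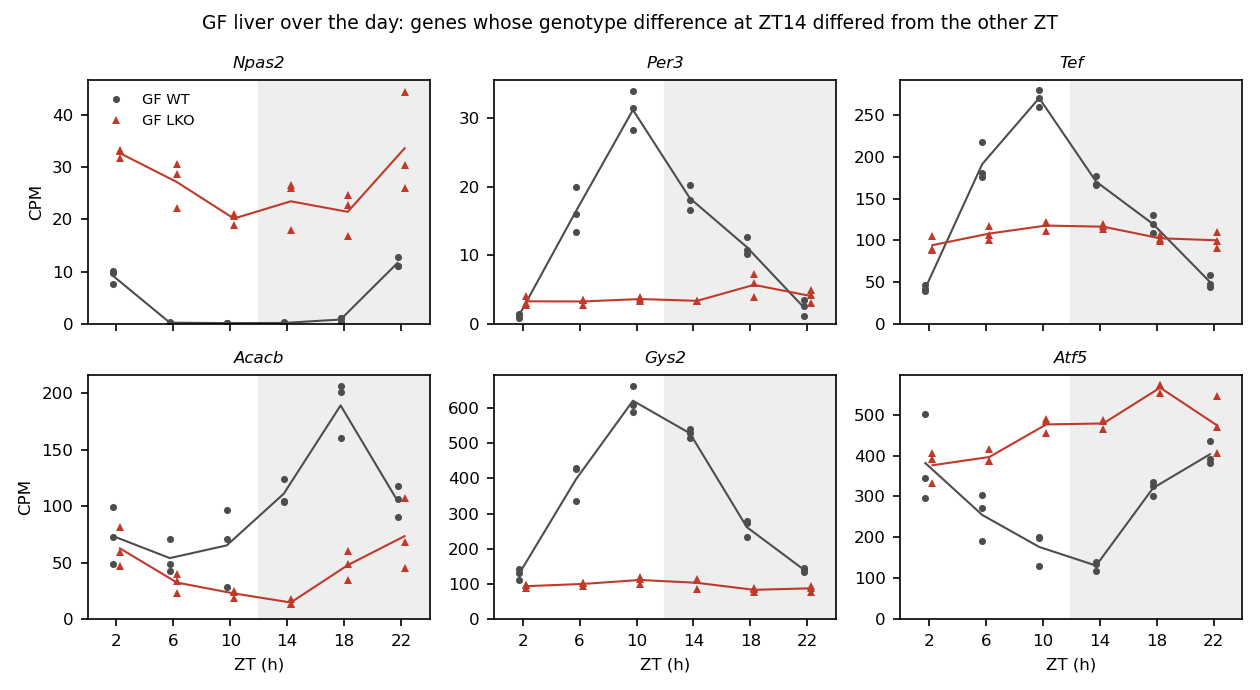
Level (CPM) over 6 ZT (hours, dark phase shaded) in GF WT (grey circles) and GF LKO (red triangles) livers for 6 genes. Their genotype difference at ZT14 differed from its mean over the other times. Each library is a point and group means are joined. The LKO lines of Per3, Tef and Gys2 are nearly flat while WT peaks at ZT10, and Acacb reaches its lowest LKO level, 14.7 CPM, at ZT14.

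**Figure D4:**
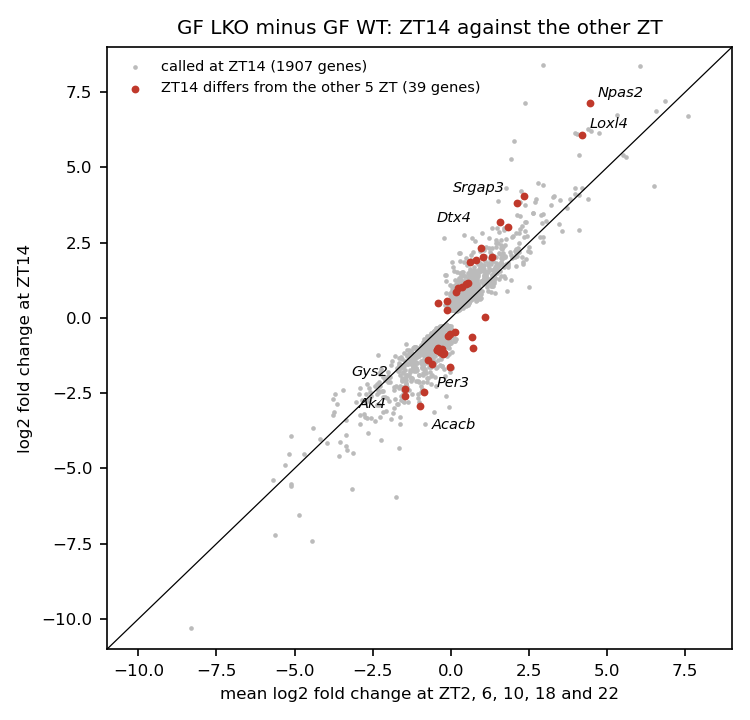
Log2 fold change at ZT14 (vertical) against its mean over the other 5 ZT (horizontal) for the 1907 genes called at ZT14 (grey). The 39 genes whose ZT14 value differed from that mean are red, and the line is that of equality. Grey genes were chosen by their ZT14 value, which by itself places them further from 0 on the vertical axis, and Npas2 lies above the line and Acacb below it.

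SPF livers of the same time served to ask whether the microbiota alters the genotype difference. No gene passed the test of the GF difference minus the SPF difference at ZT14 (0 of 13317, edgeR quasi-likelihood test), with 713 at an unadjusted p under 0.05 and 6 by DESeq2. The SPF groups limit this test, because the library labelled SPF LKO replicate 2 had 0.219 CPM of Npas2 and 0.438 CPM of Loxl4, against 25.02 and 24.01 CPM of Npas2 and 43.6 and 50.7 CPM of Loxl4 in the other SPF LKO libraries. Its Mme level was 70.01 CPM, near the 83.2 and 101 CPM of SPF WT replicates 1 and 2, and SPF WT replicate 3 was at 32.7 CPM. Without that library and SPF WT replicate 3, 743 of 13485 genes were called in SPF mice, and the test of GF minus SPF still called none, with 582 at an unadjusted p under 0.05. These libraries were left out because of levels such as those above, so the SPF values without them are a description and support nothing.

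With all 12 libraries the SPF log2 fold changes were 6.82 for Npas2, 4.23 for Lpl, 5.14 for Loxl4, −1.51 for Mme, −0.99 for Col27a1 and −0.55 for Cyp2a5. Among the 10 libraries they were 7.78, 5.52, 5.63, −4.81, −4.36 and −2.80. The GF values of the same genes, in the same order, were 7.12, 4.31, 6.09, −5.59, −4.57 and −3.53. A test that calls none does not show that the genotype effect was the same in both.

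**Figure D5:**
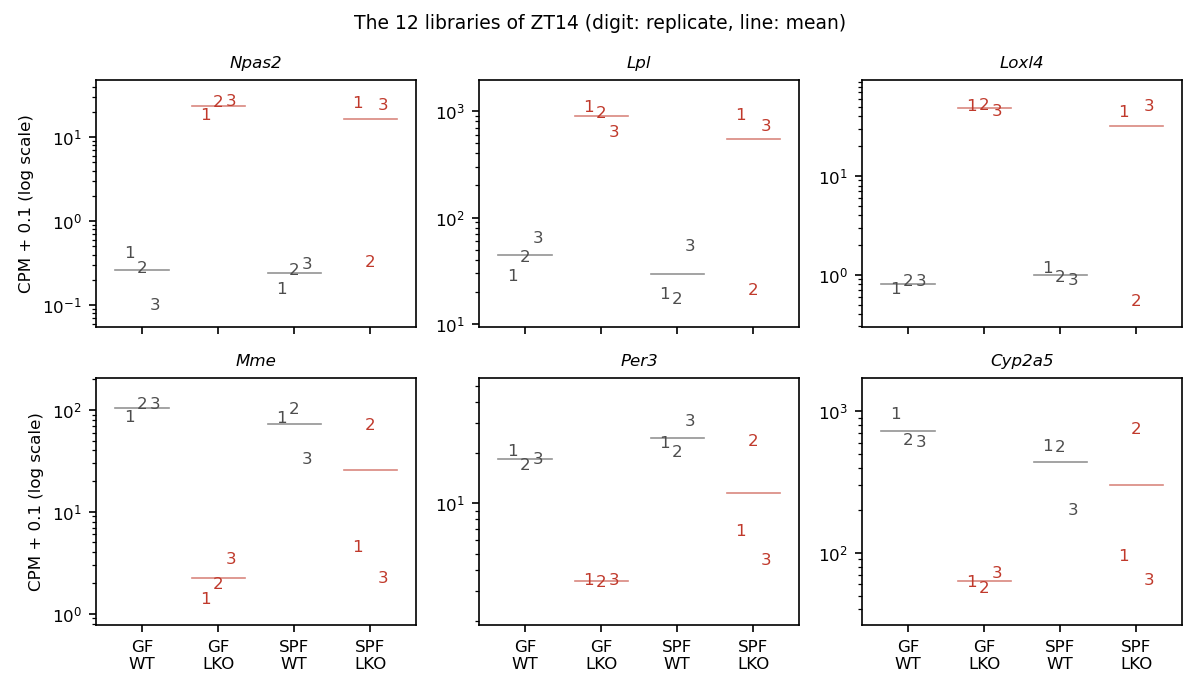
Level (CPM + 0.1, log axes) of 6 genes in the 12 libraries of ZT14, where each digit is a replicate number and each line a group mean. The GF groups are fully separated in every panel, and the library labelled SPF LKO replicate 2 lies with WT libraries, at 0.219 CPM of Npas2.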

How the data were processed

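Liver mRNA libraries from a stranded kit were sequenced as single-end reads of 50 bases. The authors deposited whole-number counts, made per gene with STAR 2.6.1b on mm10 and featureCounts 2.0.0 (per the file header, without use of strand or of reads that match several genes). Gene symbols and positions were taken from GENCODE vM21. Library totals were 17369927 to 22076113 over the series. Samples were grouped by their labels.

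Genes passing filterByExpr in the 36 GF libraries were fitted with edgeR 4.0.16 (R 4.3.3, TMM factors, quasi-likelihood, 12 group means, 24 residual degrees of freedom), with Benjamini-Hochberg adjustment over all genes and a threshold of 0.05. The test of GF against SPF used the 12 libraries of ZT14. SE is the log2 fold change divided by the root of F. Named genes were the 10 largest called changes each way without overlap and with a mean log2 CPM (pseudocount 0.5) of 1 or more, all clock list members, and members of other lists by size. DESeq2 1.42.0, RLE factors, no filter, a replicate block, fewer libraries and leaving out each library were alternatives. The members and lists were chosen with earlier results of these data known. The labels give separate samples and do not say which mouse each came from, so p-values measure the spread between these samples. The tests were checked on simulated data with 100 genes changed by 1 on the log2 scale and 100 by 2. Of the former, the test at ZT14 recovered 80, that against the other times 72 and that of GF against SPF 39. Of the latter they recovered 97, 96 and 87. Some list members are not reported here by name.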

Additional observations from a re-analysis of the deposited data

Results flagged for a closer look

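In 39 genes the genotype difference at ZT14 departed from the mean difference at the other 5 ZT, by the test of the difference itself. Among them were 14 of the genes named above. A gene that passed need not differ from each single ZT, and Clpx had a larger log2 fold change at ZT10 than at ZT14. The difference on the log2 scale was positive for Npas2 (2.68), Loxl4 (1.90), Srgap3 (1.72), Atf5 (1.25), Dtx4 (1.21), Slc30a10 (1.11), Gpd1 (0.90) and Clpx (0.69). It was negative for Acacb (−1.91), Per3 (−1.59), Ak4 (−1.11), Gys2 (−0.90), Uox (−0.67) and Tef (−0.53). Of these 14, 7 stayed called with each of the 6 ZT14 libraries left out and under every other alternative run for this test: Srgap3, Per3, Gys2, Gpd1, Atf5, Dtx4 and Slc30a10.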

How the results depend on the processing

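Over all genes, the number called at ZT14 was 1354 to 1576 with 1 library left out and stayed within 1.5 times 1907 under the other alternatives, except 813 in the fit of the 12 ZT14 libraries, which holds the library labelled SPF LKO replicate 2, and 732 with a log2 size of at least 1. All 104 called genes named in the text kept their direction in every alternative, and 82 stayed called with each library left out. In the fit of the 12 ZT14 libraries 32 of the 104 were no longer called. Per1 turned from −0.03 to 3.63e-05 under the replicate block, and ran from −0.32 to 0.13 with 1 library left out, turning positive without WT replicate 1 or 2 or LKO replicate 1 or 2. Bhlhe40 (0.18) ran from −0.0103, without LKO replicate 1, to 0.29, and Alas1 (−0.37) from −0.63 to 0.0933, without WT replicate 3. None of these 3 genes was called.

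For ZT14 against the other times, the 39 genes became 117 with DESeq2, 415 with no filter, 113 without GF WT ZT6 replicate 3, 16 with a log2 size of at least 1, and 13 to 37 with a ZT14 library left out. For GF against SPF, 0 became 6 with DESeq2 and 210 with no filter, and stayed 0 with each library left out. The causes were not tested.

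With the replicate number as a block, 1767 genes were called at ZT14, 1453 in the 6 ZT14 libraries alone, 16 for ZT14 against the other times and 0 for GF against SPF. The numbers do not pair the samples: deviations of same-numbered libraries correlated at −0.167, −0.138 and −0.154 over 11085 genes. Genes at a few counts, such as those under 1 CPM, are the least precise at this depth.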
